A study of Mus musculus with 2 samples.

Results

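A set of 42 genes was followed here whose products act between the end of DNA replication and the splitting of the cell, from the cyclins that start mitosis to the proteins that build the spindle and finish cytokinesis. They were taken from a list of G2 and mitosis gene names, and 42 of the 42 names matched a row among the 31053 gene symbols in the counts of both libraries. The study set 2 mouse small intestines side by side, 1 labelled Tg (Mdm2+/- Cag-CreERTg) and 1 labelled FMTg (Mdm2FM/- Cag-CreERTg), and the submitters describe the first as retaining and the second as having lost Mdm2, the main inhibitor of the p53 protein; the labels do not spell out what FM stands for, and the loss was not checked here. Both animals were C57BL/6j, 60 days old, carried 1 Mdm2 allele marked "-" and the Cag-CreERTg transgene, and had received tamoxifen in 1 injection (6 mg per 40 g) 24 hours before the fresh tissue was dissociated and loaded on a 10x droplet platform. CreER is a recombinase that tamoxifen switches on, and the CAG promoter is active in most cell types, so the label restricts it to no lineage. With 1 animal and 1 library per genotype there is no replicate check on any difference below, and every interval is a 95% interval that covers counting error only.

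A dividing cell makes the RNAs of these genes late in its cycle. Cyclins A and B switch on Cdk1, the Polo and Aurora kinases organise the centrosomes and chromosomes, the spindle checkpoint holds the sister chromatids together until each kinetochore is attached, and the anaphase-promoting complex with its activator Cdc20 then marks cyclins for destruction. In the small intestine the stem and transit-amplifying cells of the crypt divide, while absorptive and secretory cells have left the cycle; germinal-centre B cells and activated T cells also divide. Many of these genes share a promoter layout in which a CCAAT box, bound by the factor NF-Y, lies near a CHR element with the core TTTGAA, and activated p53 is known to repress such genes through p21, the product of Cdkn1a, and the DREAM complex.

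The promoters are shown because the members were followed as genes that are usually switched on together. RefSeq promoter windows (GRCm38.p6) were matched for 36 of the 42 members, and the 250 bases before the RefSeq start were searched on both strands for CCAAT and for TTTGAA. A match of one may share its end letter with a match of the other. CCAAT was present for 28 of 36 members (77.8%), against 33.8% of 32851 mouse promoter windows. TTTGAA was present for 13 members (36.1%), against 16% of all windows, and 12 members (33.3%) held both in 1 window, against 5.55%. These matches describe letters in a window and are not binding sites. The 6 members with a single window that held both motifs within the last 110 bases before the start are printed 5′ to 3′ on the strand of the gene, with CCAAT (or ATTGG, its reverse complement) and TTTGAA (or TTCAAA) in capitals.
Top2a (chr11:99024190-99024299, minus strand): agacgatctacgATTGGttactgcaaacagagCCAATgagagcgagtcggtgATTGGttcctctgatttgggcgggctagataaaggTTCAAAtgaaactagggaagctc
Cdk1 (chr10:69352913-69353022, minus strand): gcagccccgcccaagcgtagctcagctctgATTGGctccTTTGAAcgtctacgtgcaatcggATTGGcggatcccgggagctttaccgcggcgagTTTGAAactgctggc
Cdc20 (chr4:118437344-118437453, minus strand): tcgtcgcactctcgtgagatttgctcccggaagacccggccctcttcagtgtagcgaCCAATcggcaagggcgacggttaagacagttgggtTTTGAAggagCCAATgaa
Ube2c (chr2:164769819-164769928, plus strand): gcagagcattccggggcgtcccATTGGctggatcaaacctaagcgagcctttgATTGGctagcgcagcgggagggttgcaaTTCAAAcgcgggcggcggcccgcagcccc
Kif11 (chr19:37376272-37376381, plus strand): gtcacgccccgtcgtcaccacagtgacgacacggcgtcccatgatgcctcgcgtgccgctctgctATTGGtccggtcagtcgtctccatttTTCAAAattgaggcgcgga
Cks1b (chr3:89418292-89418401, minus strand): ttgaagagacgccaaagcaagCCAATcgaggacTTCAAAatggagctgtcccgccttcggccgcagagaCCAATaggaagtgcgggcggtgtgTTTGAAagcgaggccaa
In these 6 windows the CCAAT letters lie on either strand and some windows hold them more than once. Top2a untangles sister DNA, Cdk1 is the mitotic kinase itself, Cdc20 activates the anaphase-promoting complex, Ube2c is the ubiquitin-conjugating enzyme of that complex, Kif11 is the motor that pushes the spindle poles apart, and Cks1b is a small subunit that binds Cdk1. In the GENCODE vM21 annotation of mm10 the gene of Top2a spans chr11:98992943-99024189 and that of Ube2c chr2:164769898-164778822, while Mki67 spans chr7:135689784-135716361 and Cenpf chr1:189640606-189688086. The starts of the 2 annotations differ for some members. In GENCODE the printed windows of Cdk1, Cdc20, Ube2c and Cks1b run into the gene, that of Cks1b (chr3:89415472-89418383) for most of its length.

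The libraries held 54013005 UMIs in 6270 barcodes (Tg) and 49805718 UMIs in 6382 barcodes (FMTg), and 2913 and 2675 cells with median depths of 4938 and 4710 UMIs were kept. The libraries shared 14 barcodes, 4 of them among the kept cells. Cells were grouped by marker genes that include no member of the set. Crypt epithelium-like cells (8 Tg, 28 FMTg) are epithelial cells in which crypt markers such as Olfm4 made up at least 10% of the epithelial subtype markers. Those are crypt, absorptive, goblet, enteroendocrine and tuft markers, without Paneth markers. Crypt marker UMIs also had to exceed those of goblet, of enteroendocrine and of tuft markers. A UMI of the epithelial gene Epcam was present in 100% and 96.4% of the crypt epithelium-like cells, Olfm4 in 75% and 64.3%, and the stem-cell gene Lgr5 in 25% and 17.9%, and the pan-leukocyte gene Ptprc had 0 and 2 UMIs. Cycling B-like cells (37 and 55) are B cells with at least 10 UMIs of DNA replication genes; the B-cell gene Cd79a was present in 97.3% and 100% of them, and Ms4a1, which encodes the B-cell surface protein CD20, likewise in 97.3% and 100%. T-like cells numbered 1260 and 1292 (Cd3e present in 96.7% and 95%), and differentiated epithelium-like cells 755 and 636 (Epcam present in 89.7% and 95.9%). Free RNA was visible: Fabp1, a gene of absorptive enterocytes, was detected in 76.8% of T-like cells from Tg and in 47.1% of those from FMTg.

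Summed over the 42 genes, crypt epithelium-like cells carried 4533 CPM (UMIs of the set scaled to a total of 1e+06 UMIs; 95% interval 4317 to 4757) in Tg and 4489 CPM (4379 to 4600) in FMTg, from 1646 and 6388 UMIs. By UMI totals those levels differed by less than counting error, with a log2 ratio of FMTg over Tg of -0.014 (-0.093 to 0.065). With TMM scaling the ratio was 0.11 (0.035 to 0.19) and with DESeq2 scaling 0.11 (0.027 to 0.18), intervals that leave out 0; these scalings move the ratio of all genes by 0.13 and 0.12 in this class. Cycling B-like cells stood above the crypt in pooled CPM and were lower in FMTg, with 7177 CPM in Tg against 5434 CPM in FMTg and a log2 ratio of -0.40 (-0.47 to -0.33). T-like cells carried 666 and 517 CPM, a log2 ratio of -0.36 (-0.43 to -0.30). Differentiated epithelium-like cells held the lowest level and went the other way, with 170 and 384 CPM and a log2 ratio of 1.18 (1.11 to 1.24). The order of the 4 pooled levels, cycling B, crypt, T, differentiated, was the same in both libraries, with no neighbouring intervals touching. Those intervals leave out the spread between cells. Cycling B-like cells were admitted by their replication UMIs and T-like cells were not, so the order of these classes is partly fixed by the gate. By the median cell the crypt came first, with 4658 (Tg) and 4719 (FMTg) CPM against 3881 and 2159 CPM in cycling B-like cells.

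**Figure D1:**
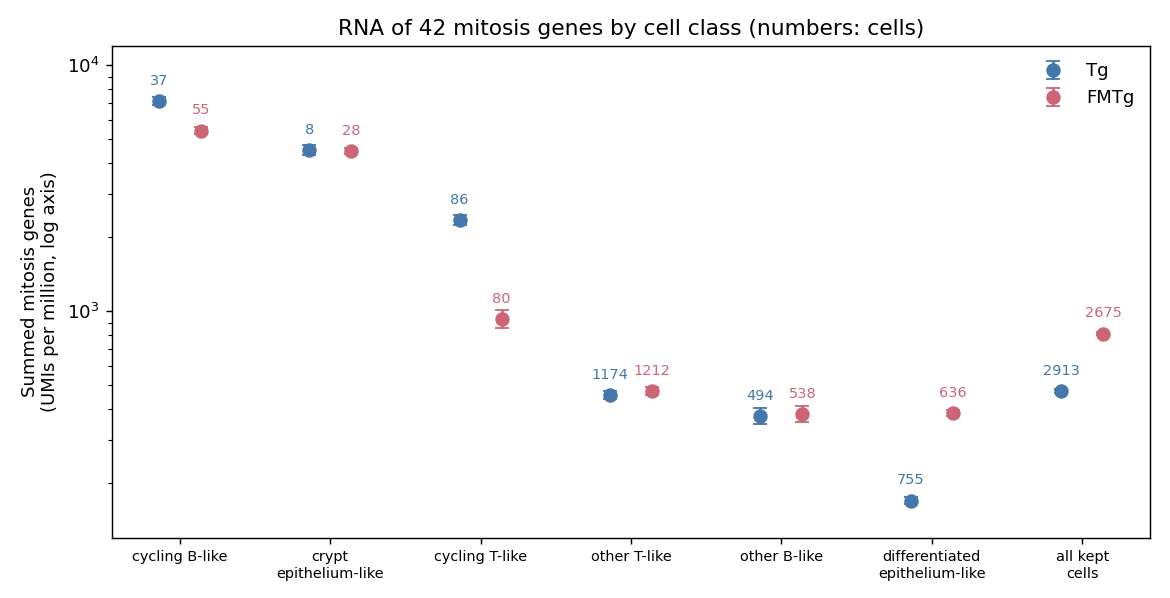
Summed CPM of the 42 mitosis genes (log axis) in each cell class, for Tg and FMTg, with exact Poisson 95% intervals as bars and the number of cells beside each point. The crypt points lie on each other (4533 and 4489 CPM), cycling B-like and cycling T-like cells are lower in FMTg, and differentiated epithelium-like cells are higher in FMTg (170 and 384 CPM).

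The crypt sum held members that differed in either direction. Of 40 members that reached 20 UMIs in the libraries combined, 7 were higher and 7 lower by 1.5-fold or more in FMTg, with a median log2 ratio of -0.054; of all 7043 genes tested in these cells 15.1% were that much higher and 14.1% that much lower, with a median of -0.064. The members' shares are thus near the background in both directions. The interval lay above 0 for 7 of the 40 members and below 0 for 2, where it did so for 6.55% and 7.94% of all genes tested; a gene with more UMIs has a narrower interval. Cdc25c (4 and 15 UMIs) and Ndc80 (3 and 12 UMIs) were under the minimum.

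Cyclins and their kinase were close to even in the crypt. Ccnb1, cyclin B1, gave 39 (Tg) and 164 (FMTg) UMIs, a log2 ratio of 0.10; Ccna2, cyclin A2, had 52 and 180, a ratio of -0.18. Cdk1 had 37 and 111 UMIs and a ratio of -0.39. Ccnb2, cyclin B2, had 62 and 190 UMIs and a ratio of -0.35. As a role these genes and their partners gave 337 and 1255 UMIs and a log2 ratio of -0.074.

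A gene of cyclin destruction, Ube2c, was the most abundant member in the crypt. It had 152 (Tg) and 699 (FMTg) UMIs, a log2 ratio of 0.23 (-0.024 to 0.49). Cdc20 had 51 and 267 UMIs and a ratio of 0.42 (-0.019 to 0.88). Both intervals reach 0. Birc5, the survivin subunit of the chromosomal passenger complex, had 151 and 506 UMIs (-0.23), Cks2, a partner of Cdk1, had 89 and 401 (0.20), and Cenpa, the histone that marks the centromere, had 81 and 311 (-0.030). Cdca3, which helps to degrade the mitosis inhibitor Wee1, had 78 and 265 UMIs (-0.21), and Cdca8, the borealin subunit of the passenger complex, had 68 and 232 (-0.20).

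The 7 members higher in FMTg crypt cells beyond counting error were 2 kinases, the DNA enzyme Top2a and 4 genes of the spindle, midzone and cleavage furrow. Anln, an actin-binding scaffold of the cleavage furrow, gave 2 (Tg) and 36 (FMTg) UMIs, a log2 ratio of 2.20 (0.24 to 5.30). Aurkb, the Aurora kinase of the passenger complex, had 3 and 41 UMIs and a ratio of 1.8 (0.15 to 4.14). Plk1, the Polo kinase, had 8 and 81 UMIs and a ratio of 1.37 (0.32 to 2.63). The Tg side of these 3 ratios rests on 8 UMIs or fewer, and the intervals are accordingly wide. Nusap1, which bundles spindle microtubules, had 12 and 117 UMIs and a ratio of 1.31 (0.46 to 2.31). Prc1, which bundles the midzone, had 9 and 76 UMIs and a ratio of 1.11 (0.11 to 2.29). Hmmr, a spindle assembly factor, had 20 and 139 UMIs and a ratio of 0.83 (0.14 to 1.58). Top2a had the most UMIs of the 7, 39 in Tg (107 CPM) and 249 in FMTg (175 CPM), and a ratio of 0.70 (0.21 to 1.23). Leaving out any 1 cell of either library kept each of these 7 ratios above 0.

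Mki67 and Cenpf were lower in FMTg crypt cells beyond counting error. Mki67, the proliferation marker that coats mitotic chromosomes, had 105 UMIs in Tg (289 CPM) and 284 in FMTg (200 CPM), a log2 ratio of -0.54 (-0.86 to -0.20). Cenpf, a large kinetochore protein, had 82 UMIs (226 CPM) and 211 UMIs (148 CPM), a ratio of -0.61 (-0.98 to -0.22). The Cenpf ratio turned to 0.18 without 1 Tg cell, whereas that of Mki67 stayed between -0.68 and -0.24 over all cells left out in turn. The other low ratios had intervals that reach 0. Kif2c, a kinesin that takes microtubules apart at the centromere, had 9 and 15 UMIs (-1.23, interval -2.52 to 0.14). Bub1, a checkpoint kinase, had 18 and 40 UMIs (-0.82), and Nuf2, which belongs to the complex that grips microtubules at the kinetochore, had 12 and 29 (-0.70). Kif11 had 26 and 65 UMIs (-0.65, turning to 0.22 without 1 cell). Hjurp, which loads Cenpa, had 28 and 71 UMIs (-0.63), and Kif20a, a cytokinesis motor, had 13 and 33 (-0.63).

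**Figure D2:**
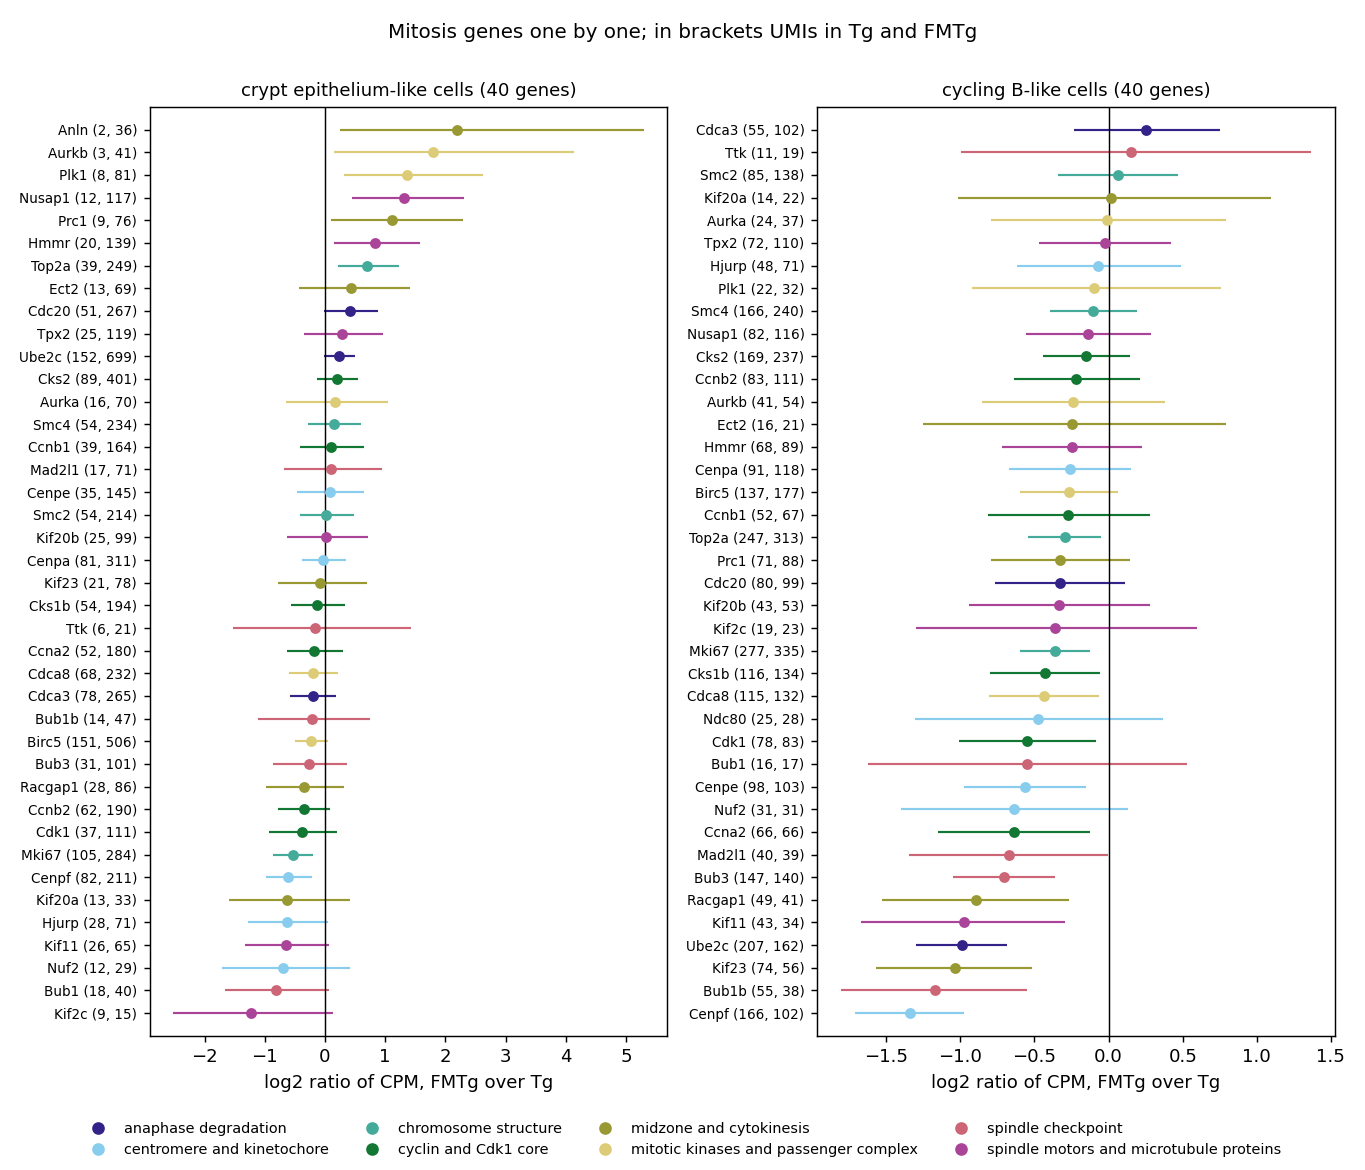
Log2 CPM ratio of FMTg over Tg with its exact 95% counting interval for each of 40 members in crypt epithelium-like cells and 40 in cycling B-like cells, coloured by role, with UMIs in Tg and FMTg in brackets. Crypt members spread to both sides of 0, from Kif2c at -1.23 to Anln at 2.20, while in cycling B-like cells the lowest is Cenpf at -1.34 and the highest Cdca3 at 0.25.

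Set beside DNA replication, the same crypt cells gave a less even picture. Genes of DNA replication, a list of 52 that contains no member of the mitosis set, gave 927 (Tg) and 2452 (FMTg) UMIs, a log2 ratio of -0.57 (-0.68 to -0.46). Of all genes tested in these cells 15.1% were at least 1.5-fold higher and 14.1% that much lower. Of the 40 replication genes with enough UMIs, 1 was that much higher and 19 that much lower. Among them Nasp, a histone chaperone, had 80 and 189 UMIs (-0.73), Dut, which keeps uracil out of DNA, had 60 and 168 (-0.49), and Rfc5, a clamp loader subunit, had 36 and 54 (-1.39). The sum of mitosis UMIs was 1.78 times that of replication UMIs in Tg and 2.61 times in FMTg, a log2 difference of 0.55 (0.42 to 0.69). A single Tg cell carried 281 of the 927 replication UMIs, and without it the difference was 0.14 and the replication ratio -0.26; with a mitochondrial limit of 10% the difference was 0.19. Cell by cell the quotient of mitosis to replication UMIs had a median of 2.29 in Tg (0.413 to 6.25) and 3.06 in FMTg (0.326 to 7.56), and the ranges overlapped almost wholly. The quotient exceeded 2 in 6 of 8 Tg cells and in 17 of 27 FMTg cells.

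The crypt result rests on few Tg cells, and the number of cells depends on the way the class is drawn. Among epithelial cells with crypt markers above each secretory list, 0 Tg and 2 FMTg cells had a crypt marker share of 5 to 10%, and 0 and 3 had one of 10 to 15%. Clusters in place of marker gates placed 13 Tg and 47 FMTg cells in the class, and a limit of 20% placed 8 and 23. The summed log2 ratio was 0.040 with clusters and -0.055 with the limit of 20%, both within the counting interval of the main value. The difference of mitosis to replication UMIs was smaller with the limit of 20%, as given below. In the class as gated, mitosis UMIs per cell were 25, 53, 116, 137, 159, 323, 357 and 476 in Tg, and ran from 7 through a median of 218.5 to 485 in FMTg. In CPM the cells spanned 2345 to 6213 CPM in Tg and 211 to 7133 CPM in FMTg, with medians of 4658 and 4719 CPM. At least 2000 CPM from 20 or more UMIs was present in 8 of 8 Tg cells and in 25 of 28 FMTg cells. A single FMTg crypt cell stood apart: it held 506 of the 510 UMIs of stroma and endothelium markers in its class and 15 mitosis UMIs among 71134. Leaving out each cell in turn kept the summed log2 ratio between -0.12 and 0.090.

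Other gene lists show what moved in these crypt cells beside the mitosis sum. Of all genes tested there, 15.1% were at least 1.5-fold higher and 14.1% that much lower. Targets of p53 were higher in FMTg, with a summed log2 ratio of 0.90 and 20 of 23 counted genes at least 1.5-fold higher and 0 that much lower. Cdkn1a gave 11 (Tg) and 325 (FMTg) UMIs, a log2 ratio of 2.91 (2.06 to 3.93). Without the FMTg cell with stroma markers, which held 97 of those 325 UMIs, the ratio was 2.48 (1.61 to 3.50) and that of the summed p53 targets 0.77. The next highest counts per cell, 56, 51 and 35 Cdkn1a UMIs, stayed in that ratio, so the Cdkn1a UMIs were spread unevenly over the cells. Mdm2, itself a p53 target whose 3′ tag is no check of the genotype, had 8 and 159 UMIs (2.34, interval 1.33 to 3.58), and Trp53, which encodes p53, had 43 and 149 (-0.18, interval -0.68 to 0.35). Of 71 further mitosis genes outside the set, 51 had enough UMIs, and 10 were at least 1.5-fold higher and 10 that much lower, with a sum at -0.068. The 2 genes in both that list and the p53 list were high in FMTg: Gtse1, a microtubule-binding protein that restrains p53, with 1 and 39 UMIs (3.31), and Psrc1, a spindle protein, with 2 and 42 (2.42). Subunits of the anaphase-promoting complex summed to -0.054, with 0 of 17 counted genes at least 1.5-fold higher and 2 that much lower, and Ube2s, which extends the ubiquitin chains, had 183 and 736 UMIs (0.037).

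Most of the set was lower in FMTg among cycling B-like cells, where 36 of 40 counted members had a ratio below 0 (fewer with the scaling alternatives, which raise all ratios here by 0.13 and 0.12). The share of all genes below 0 was not counted, and the median of all genes also lay below 0. Of these 40, 0 were higher and 10 lower in FMTg by 1.5-fold or more, where 9.58% of 5544 genes were that much higher and 14.8% that much lower. The median member stood at -0.33, against -0.10 for all genes, and the interval lay below 0 for 15 members and above 0 for 0, where it did so for 8.69% and 3.91% of all genes tested. Anln (5 and 8 UMIs) and Cdc25c (3 and 9) were under the minimum. The sum stayed below 0 under every alternative run, and moved most to -0.21 with unsupervised clusters in place of marker gates and to -0.70 with plasma-cell markers held apart from B-cell markers.

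Kinetochore and checkpoint genes had the lowest role sums in the cycling B-like class. Centromere and kinetochore genes gave 459 (Tg) and 453 (FMTg) UMIs, a log2 ratio of -0.66 (-0.85 to -0.47), and checkpoint genes had 269 and 253, a ratio of -0.73 (-0.98 to -0.47). Cenpf was the lowest member, with 166 UMIs in Tg (360 CPM), 102 in FMTg (142 CPM) and a ratio of -1.34 (-1.71 to -0.98). Bub1b, the checkpoint protein BubR1, had 55 and 38 UMIs and a ratio of -1.17 (-1.81 to -0.55). Bub3, which brings BubR1 to kinetochores and is also made in resting cells, had 147 and 140 UMIs and a ratio of -0.71. Among genes of the midzone and cytokinesis, Kif23, a motor that bundles midzone microtubules, had 74 and 56 UMIs and a ratio of -1.04 (-1.57 to -0.52), and its partner Racgap1 had 49 and 41 (-0.89).

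Cyclin destruction and chromosome structure were lower to different degrees. Ube2c had 207 UMIs in Tg (449 CPM) and 162 in FMTg (226 CPM), a ratio of -0.99 (-1.30 to -0.69), and Kif11 had 43 and 34 UMIs (-0.98). Mki67, the most abundant member in this class, had 277 and 335 UMIs and a ratio of -0.36 (-0.60 to -0.13). Top2a had 247 and 313 UMIs and a ratio of -0.30 (-0.54 to -0.049). So Ube2c was more than 1.5-fold lower while these 2 were not. The condensin subunits Smc4 (166 and 240 UMIs, -0.11) and Smc2 (85 and 138, 0.062) were near even, as were Birc5 (137 and 177, -0.27) and Cks2 (169 and 237, -0.15). The highest ratios belonged to Cdca3 (55 and 102 UMIs, 0.25, interval -0.23 to 0.75), the checkpoint kinase Ttk (11 and 19, 0.15), Kif20a (14 and 22, 0.015), Aurka, the centrosomal Aurora kinase (24 and 37, -0.013), and its activator Tpx2 (72 and 110, -0.026).

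A small number of cells carried much of the B-cell signal. Near the limit of the class, 7 Tg and 14 FMTg B-like cells had 8 or 9 replication UMIs and 4 and 6 had 10 to 12. The 10 cells with most mitosis UMIs held 76.7% of them in Tg and 66.9% in FMTg, and per cell the UMIs ran from 0 through a median of 36 to 530 in Tg and from 2 through 18 to 397 in FMTg. At least 2000 CPM from 20 or more mitosis UMIs was present in 22 of 37 Tg cells (59.5%) and 27 of 55 FMTg cells (49.1%). With the same minimum of UMIs, at least 10000 CPM, a limit chosen after the values were seen, was present in 7 and 8 cells holding 61.9% and 45.3% of the UMIs. Leaving out each cell in turn kept the sum between -0.51 and -0.26. Replication genes, on which this class was selected, were lower by less (2864 and 4005 UMIs, -0.15, interval -0.22 to -0.084), and mitosis UMIs were 1.15 times replication UMIs in Tg and 0.973 times in FMTg. Thinned to 2000 UMIs per cell, 75.7% and 74.5% of cells held at least 2 mitosis UMIs, a difference of -1.13 points (-19.6 to 18.9), against 94.6% and 100% without thinning; in B-like cells outside the cycling class the thinned shares were 15.8% and 14.9%.

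The B-like cells outside the cycling class held 375 and 382 CPM, a log2 ratio of 0.026 (-0.13 to 0.18), and 3 of 11 counted members were higher and 0 lower by 1.5-fold or more, where 5.68% and 11.1% of 8646 genes were. Haemoglobin RNA gave 33 and 2166 UMIs there; its part was not tested.

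Further mitosis genes in cycling B-like cells leaned the same way as the set. Of 62 further mitosis genes, 5 were at least 1.5-fold higher and 18 that much lower, with a median of -0.26. Of all genes tested in this class 9.58% were that much higher and 14.8% that much lower, with a median of -0.10. Among the further mitosis genes Aspm, a spindle-pole protein, had 46 and 23 UMIs (-1.64). Foxm1, a transcription factor for G2 genes, had 15 and 7 (-1.74). Targets of p53 summed to -0.14, with 1 of 21 genes at least 1.5-fold higher and 3 that much lower, the latter near the share of all genes. Cdkn1a had 43 and 56 UMIs (-0.26) and Mdm2 had 41 and 49 (-0.38). Markers of absorptive epithelium, which these cells should lack, summed to 1970 CPM in Tg and 1048 CPM in FMTg and genes of germinal centres to 2192 and 1839 CPM; the part of either in the mitosis ratios was not tested.

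The mitosis sum of T-like cells was lower in FMTg, and the pooled difference lay in the cycling cells among them. Among 34 members with at least 20 UMIs, 0 were higher and 18 lower by 1.5-fold or more, where 5.4% of 10920 genes were that much higher and 8.83% that much lower, and the median member stood at -0.67 against -0.10 for all genes. The T-like cells with at least 10 replication UMIs, 86 in Tg and 80 in FMTg, had 1673 and 553 mitosis UMIs, that is 2354 and 928 CPM and a log2 ratio of -1.34 (-1.48 to -1.20). By the median cell this class was nearly even, with 588 CPM in Tg and 583 CPM in FMTg. The median cell of the remaining T-like cells held 409 and 423 CPM. The remaining 1174 and 1212 T-like cells had 457 and 473 CPM and a ratio of 0.048 (-0.031 to 0.13), and 4 of 21 counted members were higher and 2 lower by 1.5-fold or more, where 5.7% and 8.87% of 10710 genes were. Without the cycling cells, then, the sum was not lower in FMTg. With a mitochondrial limit of 10% the ratio over all T-like cells was -0.12. Over all T-like cells the members with most UMIs were Smc4 (940 and 857 UMIs, -0.048), Bub3 (760 and 567, -0.34), Smc2 (284 and 234, -0.19), Hjurp (241 and 215, -0.080), Cenpa (221 and 204, -0.030) and Racgap1 (168 and 169, 0.094). In the remaining cells Smc4 and Bub3, which resting cells also make, provided 29.2% and 25.1% of the mitosis UMIs in Tg and 29.1% and 19.6% in FMTg.

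Within cycling T-like cells genes of spindle, kinetochore and cyclin destruction had ratios far below 0. Ube2c gave 72 (Tg) and 7 (FMTg) UMIs (-3.11), Hmmr 23 and 2 (-3.27), and Cenpf 43 and 4 (-3.17). Top2a had 150 and 31 UMIs and a ratio of -2.02 (-2.63 to -1.46), and Mki67 had 99 and 22 (-1.92). Kif23 gave 20 (Tg) and 0 (FMTg) UMIs, and the upper end of its interval was -2.05. The 6 members most abundant in the other T-like cells had ratios between -0.95 and -0.16: Smc4 had 172 and 102 UMIs (-0.50), Bub3 101 and 58 (-0.55), Hjurp 53 and 23 (-0.95), Smc2 100 and 52 (-0.69), Cenpa 59 and 31 (-0.67) and Racgap1 32 and 24 (-0.16). Of 29 members counted, 0 were at least 1.5-fold higher and 25 that much lower, where 6.99% and 14.2% of 6420 genes were.

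Few cells lie behind the T-cell values, and many lay near the limit: 101 Tg and 58 FMTg T-like cells had 8 or 9 replication UMIs and 31 and 41 had 10 to 12. At least 2000 CPM from 20 or more mitosis UMIs was present in 13 of 86 cycling T-like cells in Tg (15.1%, Clopper-Pearson interval 8.30 to 24.5%) and in 4 of 80 in FMTg (5%, 1.38 to 12.3%), intervals that overlap, and these cells held 78.2% and 38.3% of the mitosis UMIs of the class. Leaving out each cell in turn moved the summed ratio between -1.65 and -1.19. No filter, doublet, gate or scaling alternative was run for the cycling T-like class. Over all T-like cells the Mki67 ratio of -0.51 ran from -0.50 to 0.73 across 8 such alternatives, with the other sign in 4. Of the other members far below 0 in the cycling class, Hmmr changed sign in 1, and Ube2c, Cenpf, Top2a and Kif23 in 0. Replication genes, on which the cells were selected, gave 2603 and 1691 UMIs, or 3663 and 2837 CPM, a log2 ratio of -0.37 (-0.46 to -0.28). Thinned to 2000 UMIs, the share of T-like cells with at least 2 mitosis UMIs was 22.8% in both libraries, a difference of 0.018 points (-3.34 to 3.37), against 62.2% and 60.4% without thinning. Haemoglobin RNA, which T cells should lack, gave 2460 (Tg) and 80 (FMTg) UMIs in the T-like class and 2 and 8 in the cycling T-like cells. Dissociation stress genes were lower in FMTg, with a summed log2 ratio of -0.78 in T-like and -0.55 in cycling T-like cells; Hspa1b, an inducible heat shock gene, gave 522 and 11 UMIs in the T-like class. Their part in the mitosis ratios was not tested.

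**Figure D3:**
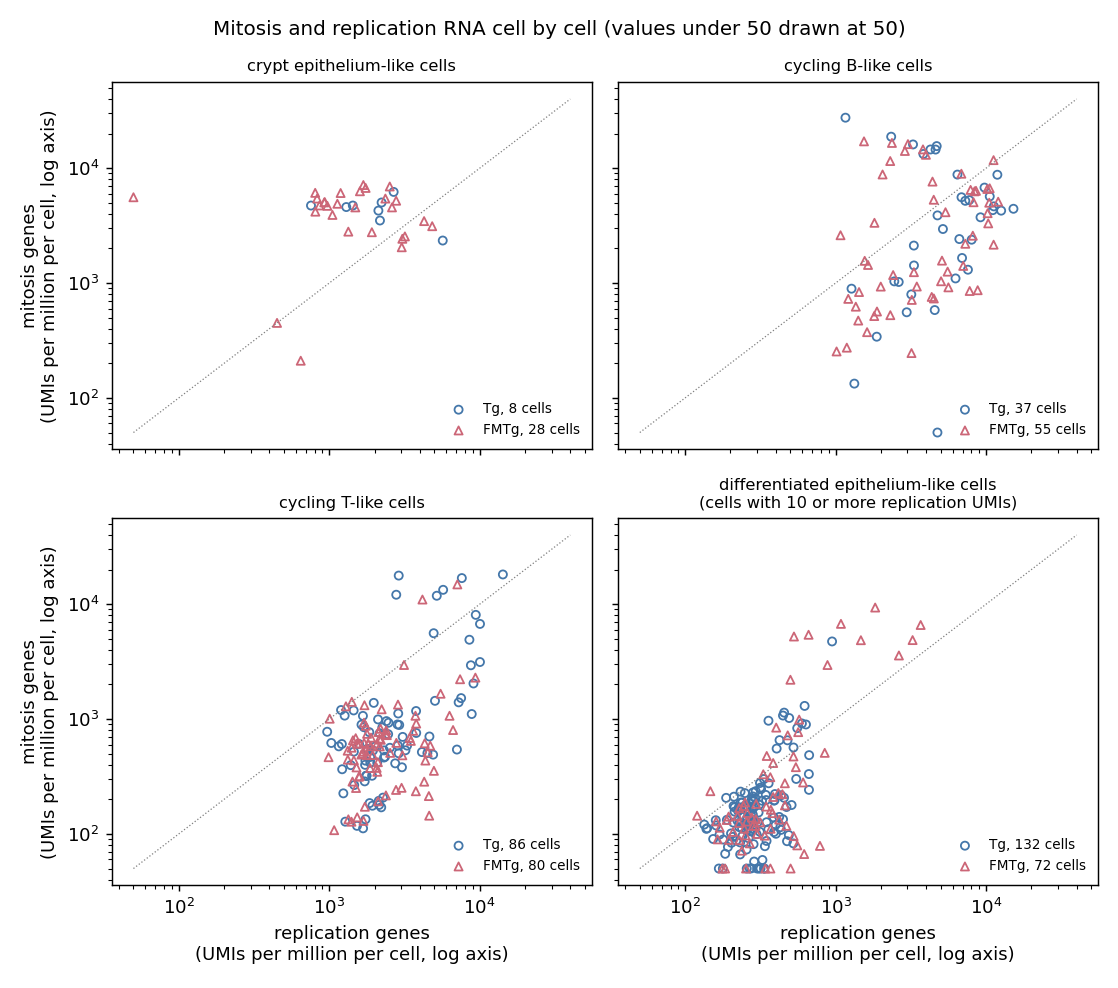
Each point is a cell, with summed replication CPM on the horizontal axis and summed mitosis CPM on the vertical axis (both log, values under 50 drawn at 50), in 4 panels by class, and a dotted line where the sums are equal. The panel of differentiated epithelium-like cells shows only those with 10 or more replication UMIs (132 Tg, 72 FMTg). Crypt cells of both libraries mix in 1 cloud mostly above the line. Counting cells with 20 or more mitosis UMIs, cycling B-like cells reach over 10000 mitosis CPM in both libraries (7 and 8 cells), and 13 Tg against 4 FMTg cycling T-like cells reach 2000.

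Differentiated epithelium-like cells carried little mitosis RNA, and more of it in FMTg. Of 33 members with at least 20 UMIs, 31 were at least 1.5-fold higher and 0 that much lower, where 19.5% of 11740 genes were that much higher and 7.9% that much lower; the median member stood at 2.54 against 0.16 for all genes. Genes of the spindle gave 40 (Tg) and 310 (FMTg) UMIs (3.34) and genes of cyclin destruction 126 and 665 (2.79), led by Ube2c with 95 and 422 UMIs (2.54). Checkpoint genes (946 and 959 UMIs, 0.41) and kinetochore genes (757 and 849, 0.56) were closer to even, and their UMIs came mainly from Bub3 (925 and 869, 0.30) and Hjurp (681 and 508, -0.032). Smc4 had 405 and 492 UMIs (0.67), Cks2 had 176 and 267 (0.99), and Birc5 had 90 and 217 (1.66).

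That difference sat in a handful of cells close to the crypt class. Cells with at least 20 mitosis UMIs and 1000 CPM numbered 9 in Tg and 16 in FMTg, and they held 407 UMIs (13.9% of the class) in Tg and 2874 UMIs (56.9%) in FMTg. Crypt markers made up a median of 3.68% and 3.31% of epithelial subtype markers in them, under the 10% that defines the crypt class, against 0.0435% and 0.0548% in the rest. These cells were picked by their mitosis RNA, so their level is a description. The remaining differentiated cells had 148 and 174 CPM, a log2 ratio of 0.23 (0.15 to 0.32), and with clusters in place of marker gates the class stood at 0.18. The sum for the class as gated was 0.50 with no mitochondrial limit and 2.60 with a limit of 10%. In cells thinned to 2000 UMIs, at least 2 mitosis UMIs were present in 5.97% of Tg and 8.75% of FMTg cells, a difference of 2.78 points (-0.28 to 5.90), against 56.0% and 62.3% without thinning. Thinned to 1000 UMIs the difference was 3.53 points (1.30 to 5.91). At 2000 UMIs it was 1.40 points (0.084 to 2.92) for at least 5 mitosis UMIs and 2.31 points (-2.8 to 7.4) for at least 1. The intervals of 2 of these settings leave out 0, and those of the others reach it. Haemoglobin RNA gave 44 and 2350 UMIs in this class. Markers of goblet cells, which make mucus, summed to 56664 and 25366 CPM in this class, and the part of either in the mitosis ratios was not tested.

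**Figure D4:**
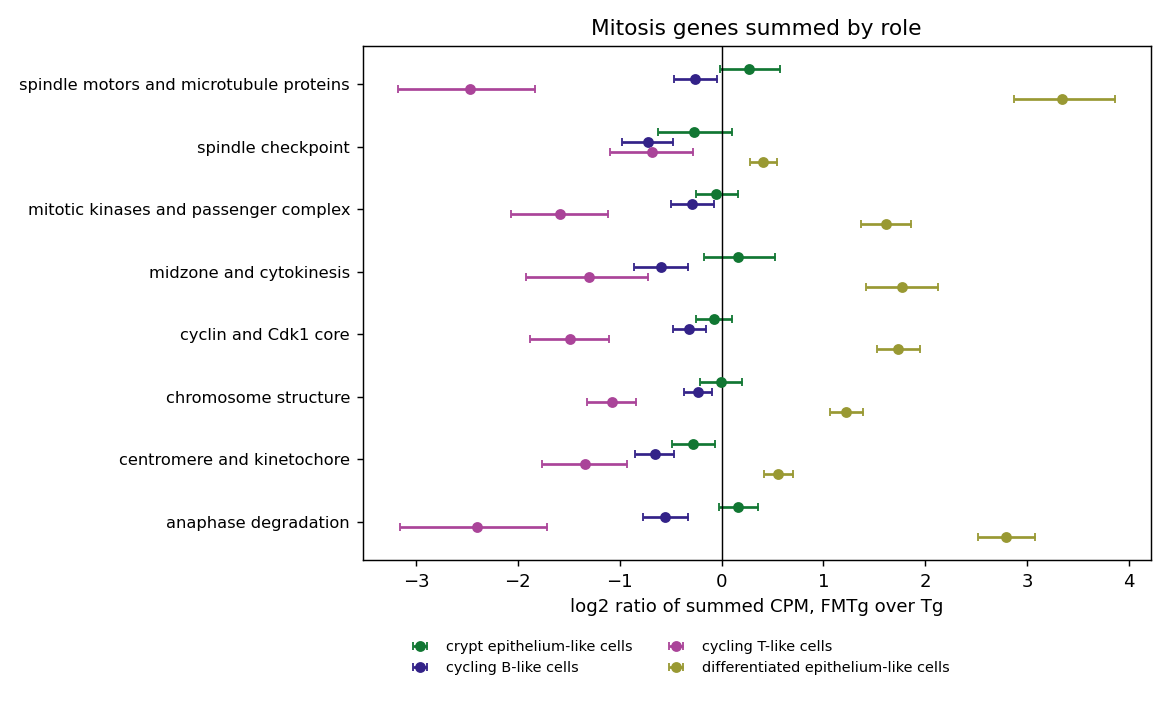
Log2 ratio (FMTg over Tg) of summed CPM for 8 roles of the mitosis genes in crypt epithelium-like, cycling B-like, cycling T-like and differentiated epithelium-like cells, with 95% counting intervals. Crypt roles lie near 0 (-0.28 to 0.27), cycling B-like roles between -0.73 and -0.23, cycling T-like roles between -2.47 and -0.68, and differentiated roles between 0.41 and 3.34.

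Over all kept cells the sum was higher in FMTg, 475 CPM in Tg and 812 CPM in FMTg, a log2 ratio of 0.77 (0.74 to 0.81), and 38 of 42 members were at least 1.5-fold higher and 0 that much lower, where 12.1% and 9.75% of 14110 genes were. This ratio mixes levels within classes with how many cells of each class were kept. Crypt epithelium-like cells supplied 11.8% of the mitosis UMIs in Tg and 32.3% in FMTg, and made up 1.05% (0.454 to 2.06%) and 4.22% (2.82 to 6.04%) of kept epithelial cells. Cycling B-like cells supplied 23.8% and 19.7% and made up 6.97% and 9.27% of B cells. Kept cells outside the B-like, T-like and epithelium-like classes (359 and 126) had 348 and 523 CPM, a log2 ratio of 0.59 (0.44 to 0.74), with 12 of 18 counted members higher and 1 lower by 1.5-fold or more, where 13.3% and 28.9% of 9528 genes were. The limit of 25% mitochondrial UMIs, which removed 2946 Tg and 3353 FMTg cells, can set such shares. Lowering that limit to 10% gave a summed ratio of 1.23, and weighting every cell equally gave 0.20. The removed cells had 140 and 172 mitosis CPM.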

How the data were processed

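Single cells from 2 small intestines were counted on the 10x Chromium 3′ platform, and the deposited matrices give unnormalised UMI counts; CASAVA 1.8.1, Cell Ranger 3.0 and the mm10 genome are named in the submitters' processing notes. Barcodes were dropped under 500 UMIs, under 300 genes or above 25% mitochondrial UMIs. Barcodes with the highest scrublet scores (scanpy 1.11.5), 0.8% per 1000 barcodes, were dropped as doublets (154 Tg, 144 FMTg). A lineage needed at least 5 UMIs of its markers and 70% of all lineage-marker UMIs. The 3 markers Vim, Tyrobp and Fcer1g that T cells carry were left out and plasma-cell markers were counted towards B cells, because dividing B cells carry them; these changes and all gate limits were set after the data were seen. Counts were summed per class and library and expressed as CPM of all UMIs of the class. A 3′ count needs no scaling by gene length. With 1 library per group no test was made. Intervals are exact Poisson for levels, conditional binomial for ratios, Clopper-Pearson for shares, Newcombe for differences of shares, and normal limits of the logarithm for quotients of 4 counts, all at 95%. A zero count was set to 3 in ratios. A gene was counted as higher or lower from 1.5-fold, over genes with at least 20 UMIs.

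The members and gene lists were chosen with earlier results of these data known. Members were named by a rule: the 8 with most UMIs and the 6 highest and 6 lowest ratios in crypt and cycling B-like cells, and the 6 with most UMIs in T-like and differentiated cells; cyclins, Cdk1, Top2a and Cenpf in the crypt, and the members named in cycling T-like cells, were added after their values were seen. Clusters used 2000 variable genes, 30 components, 20 neighbours and a resolution of 1 (leidenalg 0.10.2). Scaling alternatives used edgeR 4.0.16 (TMM factors) and DESeq2 1.42.0 (size factors) in R 4.3.3, with no test from either. Python 3.11.15, numpy 2.4.6 and scipy 1.17.1 were used, and the interval functions were tested on simulated data.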

Additional observations from a re-analysis of the deposited data

Results flagged for a closer look

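The summed mitosis genes pointed in opposite directions in classes of the same 2 libraries. Cycling B-like cells were lower in FMTg (log2 ratio -0.40) and differentiated epithelium-like cells higher (1.18), a gap of 1.58. T-like cells were lower (-0.36), which gives a gap of 1.54 to differentiated epithelium-like cells. With 1 library per group the difference was not tested in either case. Without cells holding at least 10 replication UMIs the ratios were 0.048 in T-like and 0.28 in differentiated epithelium-like cells.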

How the results depend on the processing

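Of the alternatives run, none moved the median crypt member beyond its counting error (15 alternatives, -0.099 to 0.086), and the same held for 2 alternatives for each share of cells with mitosis RNA. The crypt sum was 0.11 with TMM and 0.11 with DESeq2 scaling, and -0.12 to 0.090 with each cell left out in turn. Scaling by TMM or DESeq2 shifts all genes by 0.13 and 0.12 in crypt and in cycling B-like cells and by -0.16 and -0.19 in differentiated cells.

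The cycling B-like sum stayed negative throughout: -0.26 with a mitochondrial limit of 10%, -0.33 with at least 1000 UMIs, -0.31 with doublets kept, -0.27 with TMM, -0.28 with DESeq2, -0.21 with clusters, -0.25 with germinal-centre markers in place of replication genes, -0.70 with plasma-cell markers apart, -0.27 with at least 20 replication UMIs, and -0.51 to -0.26 with each cell left out. The median member there was -0.21 at the 10% limit, -0.24 with doublets kept, -0.20 with TMM, -0.21 with DESeq2, -0.14 with clusters, -0.16 with germinal-centre markers, -0.84 with plasma-cell markers apart and -0.21 with at least 20 replication UMIs. The log2 difference of mitosis to replication RNA there was -0.14 at the 10% limit, -0.13 with at least 1000 UMIs, -0.15 with doublets kept, -0.56 with plasma-cell markers apart, and -0.38 to -0.069 with each cell left out. In crypt cells it was 0.19 at the 10% limit, 0.34 with crypt markers at 20% or more, and 0.14 to 0.71 with each cell left out.

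The T-like sum was -0.23 with no mitochondrial limit, -0.27 at 50%, -0.12 at 10%, -0.25 with at least 1000 UMIs, -0.22 with doublets kept, -0.27 with TMM, -0.28 with DESeq2, -0.15 with equal weight per cell and -0.56 without the 3 most abundant members (Bub3, Smc4 and Hjurp); it turned to 0.048 without cells holding at least 10 replication UMIs, an alternative that removes the cycling cells. Leaving out each cell gave -0.42 to -0.30. The differentiated sum was 0.50 with no mitochondrial limit, 0.49 at 50%, 2.60 at 10%, 1.01 with TMM, 0.99 with DESeq2, 1.09 with trimmed totals, 0.91 with equal weight, 2.18 without the 3 most abundant members, 0.18 with clusters, 0.28 without cells holding at least 10 replication UMIs, and 1.03 to 1.26 with each cell left out. Over all kept cells these gave 0.54 with no limit, 0.43 at 50%, 1.23 at 10%, 0.82 with at least 1000 UMIs, 0.81 with doublets kept, 0.72 with TMM, 0.69 with DESeq2, 0.73 with trimmed totals, 0.20 with equal weight, 1.06 without the 3 members and 0.13 without cells holding at least 10 replication UMIs. Except where a setting removes cells or genes by its construction, the cause was not tested.

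Alternatives named here that use plasma-cell markers apart, at least 20 replication UMIs, crypt markers at 20%, the removal of cells with at least 10 replication UMIs, or cells left out in turn were chosen after seeing the data. The crypt comparison is limited by its 8 Tg cells and 1646 mitosis UMIs. No paired analysis was possible because each group has 1 library and the labels give no shared replicate numbers.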

Other observations

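Crypt epithelium-like cells of the FMTg library held mitosis RNA and Cdkn1a RNA in the same cells. A Cdkn1a UMI was present in 20 of 28 FMTg cells (71.4%) and in 3 of 8 Tg cells (37.5%), at median depths of 53490 and 44288.5 UMIs. Of the 10 FMTg cells with most mitosis UMIs, 9 held a Cdkn1a UMI, with 76 UMIs between them. Single cells held 35 and 18 of these 76. The 10 cells had depths of 46262 to 83860 UMIs, and the part of depth was not tested. Among B-like cells outside the cycling class, 15.2% (Tg) and 13.2% (FMTg) held a Cdkn1a UMI, at median depths of 3362.5 and 3205.5 UMIs, as did 87.9% and 95.3% of differentiated epithelium-like cells, at 22503 and 18048.5 UMIs. Depth differs too much between these classes for an order to be read from the shares, and the part of free RNA in them was not tested.

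Genes of tubulin and chromatin proteins that dividing cells make in quantity were slightly lower in FMTg crypt cells by UMI totals. Their sum stood at -0.19 (-0.24 to -0.15). Of 12 genes, 1 was at least 1.5-fold higher and 2 that much lower, where 15.1% and 14.1% of all genes tested were. Tuba1c gave 21 (Tg) and 148 (FMTg) UMIs (0.85), and Stmn1, which destabilises microtubules, had 164 and 427 (-0.59). In cycling B-like cells the list summed to -0.33, with H2afx, a histone variant, at 295 and 247 UMIs (-0.89) and Tubb5, a beta-tubulin, at 704 and 727 (-0.59). Dissociation stress genes summed to -0.15 in the crypt, -0.30 in cycling B-like cells and -0.20 in differentiated cells, beside the larger values in T-like cells given above, and their part in the mitosis values was not tested.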
